A study of Mus musculus with 4 samples.

Results

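The levels of 10 long noncoding RNA (lncRNA) genes were compared in 32Dcl3-Abl1ko cells with and without IL-3. The genes were chosen by name: 3 nuclear lncRNAs (Malat1, Neat1 and Kcnq1ot1) and 7 snoRNA host lncRNAs (Gas5, Snhg1, Snhg3, Snhg5, Snhg6, Snhg8 and Snhg12). All 10 were found among the 23756 gene rows of the deposited table, and all 10 were among the 16535 genes that passed the expression filter. 32Dcl3 is a mouse bone marrow line of myeloid progenitors that normally needs IL-3. All libraries came from cells labelled Abl1 KO, made by CRISPR/Cas9 with a lentiviral vector and puromycin selection. Abl1ko/IL3+ cells (2 libraries) were kept with IL-3, and Abl1ko/IL3- cells (2 libraries) were grown without it, after IL-3 had been withdrawn step by step. The knockout lines were single clones and the labels do not tie a clone to a library, so clone and replicate cannot be told apart. The question put to these genes was whether RNA-seq of rRNA-depleted total RNA, which also captures nuclear RNA, showed different levels in cells that had become independent of IL-3.

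These RNAs act in the nucleus or carry small RNAs. Malat1 is an abundant RNA of nuclear speckles, Neat1 is the scaffold on which paraspeckles form, and Kcnq1ot1 is an imprinted RNA that silences neighbouring genes in cis. A snoRNA host gene is transcribed and spliced, and the small nucleolar RNAs cut from its introns guide the chemical modification of ribosomal and other RNAs. The spliced exons of several hosts, Gas5 among them, reach the cytoplasm, are read by ribosomes and are then destroyed by nonsense-mediated decay (NMD). Many hosts also share with ribosomal protein genes a start made of pyrimidines, the 5′ terminal oligopyrimidine (TOP) element, through which growth signals control translation.

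Start regions of the hosts are shown because they carry a sequence feature that the choice of members did not use. RefSeq (GRCm38.p6) gave start regions for 6 of the 7 hosts and for Malat1 and Kcnq1ot1. Each sequence runs from 40 bases before to 20 bases from the annotated start on the gene's own strand, and capitals mark the letters TATA between 40 and 20 bases upstream and a run of at least 5 C or T that begins with C within 10 bases of the start.
Gas5 (chr1:161035126-161035185, plus strand): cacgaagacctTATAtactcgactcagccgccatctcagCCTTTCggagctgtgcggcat
Snhg12 (chr4:132308638-132308697, plus strand): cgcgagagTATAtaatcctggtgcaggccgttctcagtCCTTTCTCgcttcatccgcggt
Snhg8 (chr3:123508317-123508376, minus strand): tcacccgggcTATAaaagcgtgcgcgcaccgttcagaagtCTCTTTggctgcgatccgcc
Snhg5 (chr9:88522878-88522937, minus strand): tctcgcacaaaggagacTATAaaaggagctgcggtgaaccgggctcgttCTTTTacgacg
Snhg1 (chr19:8723447-8723506, plus strand): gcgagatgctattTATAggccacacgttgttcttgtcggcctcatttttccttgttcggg
Snhg3 (chr4:132353667-132353726, minus strand): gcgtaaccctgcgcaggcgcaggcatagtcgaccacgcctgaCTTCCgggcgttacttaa
Malat1 (chr19:5802653-5802712, minus strand): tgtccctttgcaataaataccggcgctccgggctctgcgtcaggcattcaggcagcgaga

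Gas5, Snhg12, Snhg8 and Snhg5 held both features in a start region. Across all 32851 RefSeq start regions, 5.81% held TATA in that window, 29.0% held a pyrimidine run and 1.77% held both. Snhg1 had TATA without such a run, and Snhg3 had a run of 5 bases without TATA. A second annotated start of Gas5, upstream of the one shown, had neither, as had Malat1 and Kcnq1ot1. Both features were searched on the gene's strand only, they cannot overlap, and a match is a description of letters, not of a working element.

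The libraries held 48953174 to 60382588 counts, and 3 counts, the upper limit that a count of 0 allows, correspond to 0.0497 to 0.0613 CPM (counts scaled to a common library size). This limit covers counting error only. Members held 568 to 76529 counts in a library, so counting error is small for all of them and the spread between replicates sets the precision. Counts of Abl1 itself were 1322 and 2222 with IL-3, against 1544 and 2256 without. Both groups carry the edit, and small indels need not change RNA counts, so Abl1 does not check the group labels. The labels call the cells pre-B cells, but 9 of 10 myeloid progenitor markers were above 1 CPM in every library, while of 7 B lineage markers found, 1 (Cd79b) was, and 4, Rag1 among them, were at or below 1 CPM in every library. Libraries differed in markers of other blood lineages. Summed over 6 erythroid markers the level was 399 and 7449 CPM with IL-3 and 3629 and 1833 CPM without it. For 7 mast and basophil markers it was 766 and 118 CPM with IL-3 and 181 and 253 CPM without it. For 8 neutrophil markers it was 804 and 294 CPM with IL-3 and 945 and 5364 CPM without it. Of these, 7 were tested, and 5 were higher in both Abl1ko/IL3- libraries than in both Abl1ko/IL3+ libraries, against 19.4% of all genes tested. All 7 had a higher fitted level without IL-3, with a median log2 fold change of 5.27, though none passed the adjusted threshold. The largest was that of S100a8, with 1.15 and 0.386 CPM with IL-3 and 71.2 and 123 CPM without it (log2 fold change 6.98, standard error 0.78, adjusted p = 0.532 in edgeR). Ngp, whose groups overlapped, held 4003 CPM in Abl1ko/IL3- replicate 2. The part of these markers in the results was not tested, and fewer cells of a type cannot be told apart from less RNA per cell in bulk RNA.

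All 10 lncRNAs had a higher fitted level without IL-3, as had 7946 of all 16535 genes tested. Of the 10, 9 were higher in both Abl1ko/IL3- libraries than in both Abl1ko/IL3+ libraries. Of all genes tested, 19.4% showed that order. The median log2 fold change was 1.33 for the 3 nuclear lncRNAs and 0.91 for the 7 snoRNA hosts, against -0.027 for all genes tested. Without Abl1ko/IL3+ replicate 2 these medians were 0.82 and 1.53, so their order depended on 1 library. None of the 10 passed the test, since 0 of 16535 genes (0%) had an adjusted p under 0.05 in the quasi-likelihood test of edgeR (Benjamini-Hochberg), and adjusted p ranged from 0.749 to 0.985 over the members. Unadjusted p-values under 0.05 were reached by Snhg5, Snhg3 and Kcnq1ot1, 3 of the 10, all higher without IL-3, against 2.56% of all genes in that direction (978 genes in either direction). DESeq2's Wald test also called 0 of the 10 after adjustment (271 of all genes), with 5 at an unadjusted p under 0.05 (1369 of all genes). Levels below are CPM scaled by edgeR's TMM factors, and differences are log2 fold changes of Abl1ko/IL3- over Abl1ko/IL3+ cells with standard errors.

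**Figure D1:**
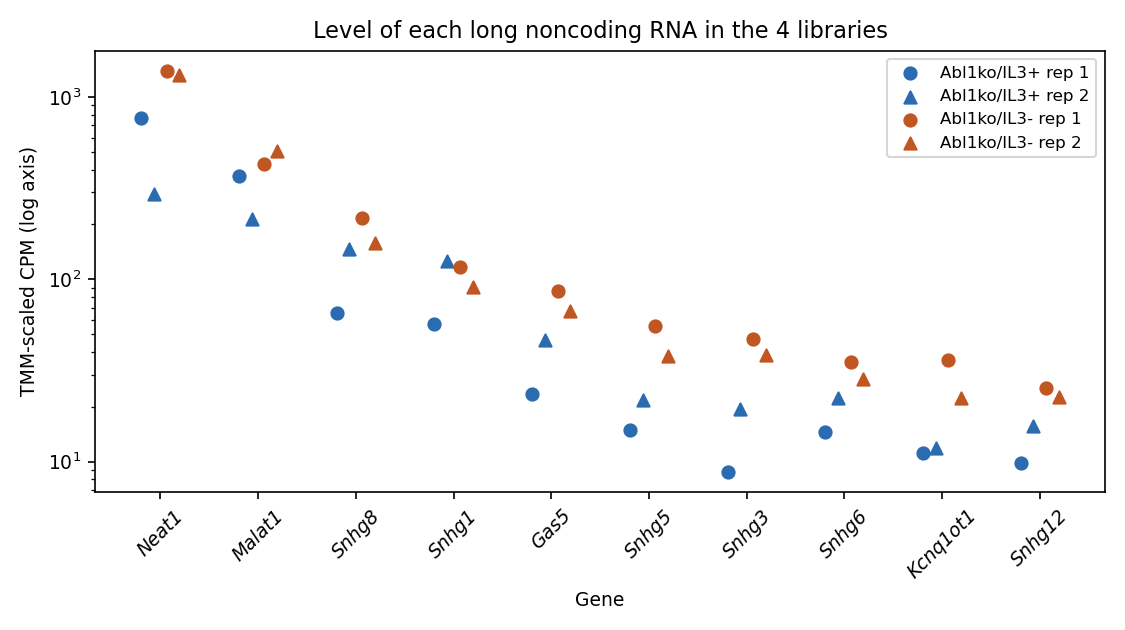
Level of each lncRNA (TMM-scaled CPM, log axis) in the 2 Abl1ko/IL3+ libraries (blue) and the 2 Abl1ko/IL3- libraries (orange), where circles are replicate 1 and triangles replicate 2. For every gene but Snhg1, both orange points lie above both blue points.

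Neat1, the paraspeckle scaffold, occupies chromosome 19 from 5824708 to 5845478 in GRCm38 (minus strand), and annotated exons cover all of that interval. Its level was 767 and 295 CPM with IL-3 and 1394 and 1318 CPM without it. The Abl1ko/IL3- libraries lay close together and above both Abl1ko/IL3+ libraries, the lower of them 1.72-fold above the higher Abl1ko/IL3+ library. The log2 fold change was 1.35 (standard error 0.54, n = 2 per group, adjusted p = 0.849 in edgeR). The Abl1ko/IL3+ replicates differed 2.60-fold, while the Abl1ko/IL3- replicates differed 1.06-fold. Without Abl1ko/IL3+ replicate 2 the log2 fold change was 0.82, and without replicate 1 it was 2.22. Gm27505, a short RNA gene inside Neat1 on the same strand, did not show the order of Neat1. It had 32.3 and 3.53 CPM with IL-3 and 12.6 and 22.2 CPM without it, so its groups overlapped. Reads of Gm27505 cannot be told apart from Neat1 reads over the same bases.

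Malat1, the speckle RNA, lies on the same strand of chromosome 19 from 5795690 to 5802672, next to Neat1. It had 371 and 213 CPM with IL-3 and 429 and 507 CPM without it. The groups did not overlap, but the margin was narrow, with the lower Abl1ko/IL3- library 1.16-fold above the higher Abl1ko/IL3+ library. The log2 fold change was 0.68, with a standard error of 0.40 (adjusted p = 0.886 in edgeR), and it was 0.34 without Abl1ko/IL3+ replicate 2 and 1.15 without replicate 1. The ratio of Neat1 to Malat1, taken per length from FPKM, was 0.695 and 0.465 in Abl1ko/IL3+ cells against 1.09 and 0.874 in Abl1ko/IL3- cells. This ratio does not depend on library scaling, and both Abl1ko/IL3- libraries were above both Abl1ko/IL3+ libraries, by at least 1.26-fold. An exact permutation test over the libraries, two-sided, gave p = 0.333, the smallest value that 2 against 2 libraries allow.

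Kcnq1ot1 spans chromosome 7 from 143203458 to 143296549 on the minus strand, antisense to Kcnq1, and its annotated exon covers the whole interval. Its level was 11.2 and 11.9 CPM with IL-3 and 35.9 and 22.2 CPM without it. Here the Abl1ko/IL3+ replicates agreed within 1.06-fold and the Abl1ko/IL3- replicates differed 1.62-fold, the reverse of Neat1. The lower Abl1ko/IL3- library was 1.87-fold above the higher Abl1ko/IL3+ library, and the log2 fold change was 1.33 (standard error 0.42, adjusted p = 0.768 in edgeR). Leaving out single libraries gave 0.94 to 1.65. Kcnq1 itself, on the other strand, had at most 12 counts in a library and did not pass the expression filter. Of the 11 listed genes of the Kcnq1 imprinted domain, 6 were tested, and 3 of them were lower in both Abl1ko/IL3- libraries than in both Abl1ko/IL3+ libraries and 2 higher, against 17.9% of all genes tested lower and 19.4% higher. The one with an unadjusted p under 0.05 was Tssc4, with 25.3 and 18.4 CPM with IL-3 and 9.34 and 7.70 CPM without it (log2 fold change -1.36, standard error 0.41, adjusted p = 0.739 in edgeR). Slc22a18 was 1 of the 2 higher genes, but its order has little weight. It had 0 and 1.6186 CPM with IL-3 and 1.6923 and 1.6195 CPM without it. Cdkn1c and Ascl2, imprinted genes of the domain, were not among the genes tested.

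Among the snoRNA hosts, Snhg3 lies on chromosome 4 from 132348014 to 132353686 on the minus strand and carries the snoRNAs Snora73a and Snora73b. It had 8.81 and 19.5 CPM with IL-3 and 46.9 and 38.3 CPM without it. Both Abl1ko/IL3- libraries were at least 1.96-fold above either Abl1ko/IL3+ library, the widest gap between the groups among the members. The log2 fold change was 1.59 (standard error 0.50, adjusted p = 0.779 in edgeR), and it was 2.27 without Abl1ko/IL3+ replicate 2 and 1.14 without replicate 1. The lncRNA gene Gm17300 lies within Snhg3 on the other strand and overlapped between groups, with 3.85 and 12.1 CPM with IL-3 and 19.1 and 9.25 CPM without it. Whether reads were counted by strand is not given in the sources used here, so reads of such antisense pairs cannot be told apart where they overlap.

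Snhg5, host of Snord50a and Snord50b on chromosome 9 (88521050 to 88522929), was higher in both Abl1ko/IL3- libraries. Its level was 14.9 and 21.8 CPM with IL-3 and 55.1 and 37.7 CPM without it. The lower Abl1ko/IL3- library was 1.73-fold above the higher Abl1ko/IL3+ library, and the log2 fold change was 1.34 (standard error 0.41, adjusted p = 0.749 in edgeR). Leaving out single libraries gave 1.04 to 1.64.

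Gas5, a gene first known for RNA that accumulates in growth-arrested cells and a host of many box C/D snoRNAs, lies on chromosome 1 from 161034422 to 161038539. It had 23.5 and 46.4 CPM with IL-3 and 86.1 and 67.0 CPM without it. All libraries without IL-3 were above those with it, by at least 1.44-fold, although the Abl1ko/IL3+ replicates differed 1.98-fold. The log2 fold change was 1.13 (standard error 0.45, adjusted p = 0.844 in edgeR), and it was 1.70 without Abl1ko/IL3+ replicate 2 and 0.74 without replicate 1. Zbtb37, a protein-coding gene on the other strand that overlaps the start of Gas5, had 18.3 and 8.68 CPM with IL-3 and 14.5 and 4.05 CPM without it, so its groups overlapped.

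Snhg12, Snhg6 and Snhg8 formed a middle group with smaller differences. Snhg12 (chromosome 4, 132308623 to 132311024), host of Snora44, Snora61, Snora16a and Snord99, had 9.76 and 15.7 CPM with IL-3 and 25.2 and 22.7 CPM without it (log2 fold change 0.91, standard error 0.42, adjusted p = 0.855 in edgeR). For Snhg6 (chromosome 1, 9941959 to 9944118), host of Snord87, the levels were 14.5 and 22.2 CPM with IL-3 and 35.4 and 28.2 CPM without it (log2 fold change 0.80, standard error 0.40, adjusted p = 0.860 in edgeR). In each of these genes both Abl1ko/IL3- libraries stood above both Abl1ko/IL3+ libraries, by at least 1.44-fold for Snhg12 and 1.27-fold for Snhg6. Snhg8 (chromosome 3, 123507552 to 123508404), host of Snora24, had 65.2 and 147 CPM with IL-3 and 218 and 159 CPM without it, so its groups were separated by 1.08-fold, less than the 2.25-fold spread of its Abl1ko/IL3+ replicates (log2 fold change 0.83, standard error 0.49, adjusted p = 0.886 in edgeR). Without Abl1ko/IL3+ replicate 2 the log2 fold change of Snhg8 was 1.53, that of Snhg12 1.29 and that of Snhg6 1.14, and without replicate 1 they were 0.38, 0.62 and 0.54.

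Snhg1, on chromosome 19 from 8723475 to 8726443, was the exception. It had 57.0 and 126 CPM with IL-3 and 116 and 90.7 CPM without it. Abl1ko/IL3+ replicate 2 held the highest level of the 4 libraries, so the groups overlapped. The log2 fold change was 0.18 (standard error 0.48, adjusted p = 0.985 in edgeR), and its sign depended on single libraries, with -0.27 without Abl1ko/IL3+ replicate 1 and -0.015 without Abl1ko/IL3- replicate 1.

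**Figure D2:**
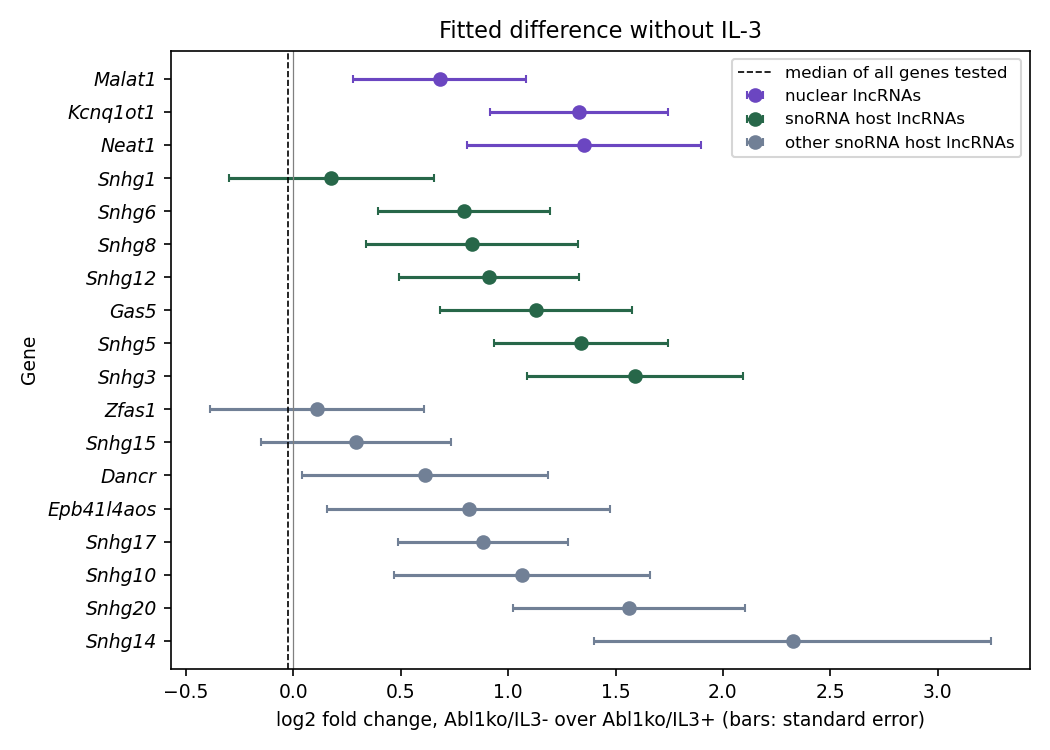
Log2 fold change of Abl1ko/IL3- over Abl1ko/IL3+ cells from edgeR, with standard errors as bars, for the 3 nuclear lncRNAs, the 7 snoRNA hosts and the 8 tested genes of a further list of snoRNA host lncRNAs. All 18 points are right of the median of all genes tested (dashed line, -0.027), and for Snhg1, Zfas1 and Snhg15 the bars reach it.

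Replicates of the same group differed in a pattern that the snoRNA hosts shared. In the Abl1ko/IL3+ group all 7 hosts were lower in replicate 1 than in replicate 2, by 1.46-fold for Snhg5 up to 2.25-fold for Snhg8, while 49.3% of all genes were higher in replicate 2. Neat1 and Malat1 differed in the opposite direction and were lowest in Abl1ko/IL3+ replicate 2. In the Abl1ko/IL3- group all 7 hosts were higher in replicate 1, where 6 of the 7 had their highest level. Of 15424 genes tested with counts in every library, 7787 were higher in Abl1ko/IL3- replicate 2. In Abl1ko/IL3- replicate 1, 3491 of them had their highest level. The median absolute log2 ratio between replicates was 0.89 with IL-3 and 0.34 without it for the 10 members, and 0.75 and 0.35 for all genes tested with counts in every library. A wider spread in the Abl1ko/IL3+ pair was shown by 8 of the 10 members and by 70.3% of all genes.

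**Figure D3:**
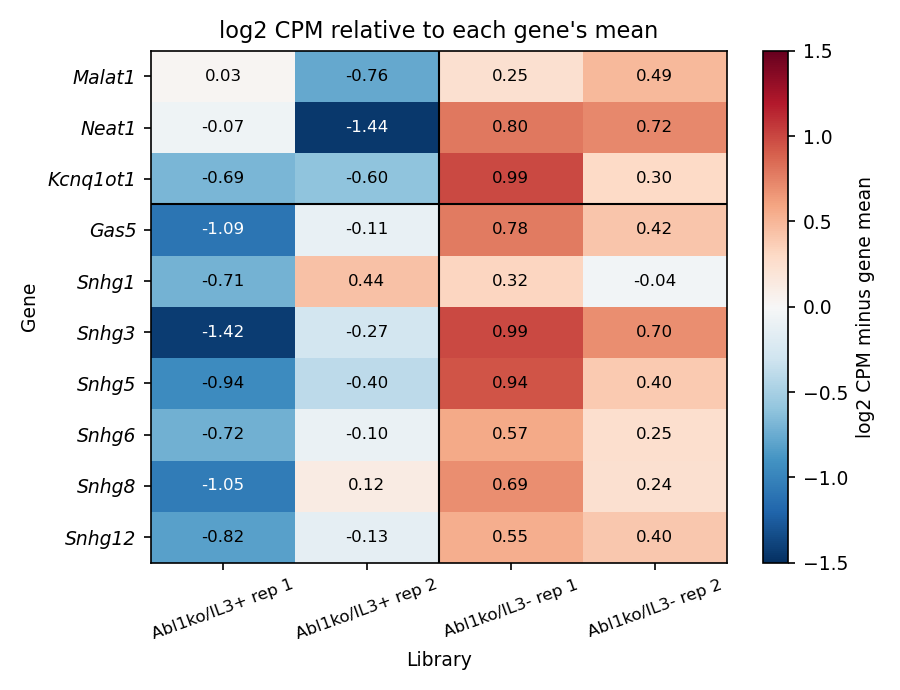
Log2 CPM of each lncRNA in each library, relative to that gene's mean over the 4 libraries, with blue below and red above the mean. The hosts are lowest in Abl1ko/IL3+ replicate 1, Neat1 and Malat1 are lowest in Abl1ko/IL3+ replicate 2, and both Abl1ko/IL3- columns are above 0 except for Snhg1 in replicate 2.

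Summed over the 7 hosts, the level was 194 and 399 CPM with IL-3 and 583 and 444 CPM without it (296 ± 145 against 514 ± 98.7, mean ± SD, n = 2). The sum was 1.73-fold higher without IL-3, and the libraries of the groups were separated by 1.11-fold. For the 3 nuclear lncRNAs the sum was 1149 and 520 CPM with IL-3 and 1860 and 1848 CPM without it, a 2.22-fold difference between the group means, with most of the reads in Neat1. In both cases the exact permutation test, two-sided, gave p = 0.333, the smallest that this design allows.

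Per length, Snhg8 was the most abundant of the members. In FPKM (mean ± SD, n = 2) the order with IL-3 was Snhg8 (106 ± 45.5), Malat1 (37.8 ± 18.8), Snhg1 (26.3 ± 11.1), Neat1 (23.4 ± 17.1), Snhg6 (13.8 ± 2.39), Snhg3 (12.2 ± 5.14), Snhg5 (9.17 ± 1.25), Gas5 (7.93 ± 2.75), Snhg12 (4.55 ± 0.950) and Kcnq1ot1 (0.109 ± 0.00948). Of the 9 pairs of neighbours in that order 6 overlapped, from Malat1 down to Gas5. Without IL-3 Snhg8 was again highest (196 ± 32.6), followed by Malat1 (59.9 ± 10.4) and Neat1 (58.1 ± 0.968), whose libraries overlapped. Snhg3 came next at 38.3 ± 3.35 FPKM, above both Snhg1 libraries (30.8 ± 3.68), whereas with IL-3 the mean of Snhg3 was below that of Snhg1. Then came Snhg6 (24.6 ± 2.53), Snhg5 (23.7 ± 4.98), Gas5 (18.0 ± 2.18), Snhg12 (8.82 ± 0.148) and Kcnq1ot1 (0.275 ± 0.0773), with Snhg6 and Snhg5 overlapping. The annotated exons of Snhg1, Snhg8 and Snhg12 cover 100% of the gene interval, and those of Gas5 and Snhg5 cover 91.3% and 92.0%, so for these hosts the counts do not separate spliced from intron-containing RNA. In Snhg3 and Snhg6 the exons cover 17.4% and 53.1%. FPKM divides by the length of the annotated exons, so the order between hosts also depends on that annotation. With IL-3 the mean of Snhg3 was above that of Gas5 in FPKM but below it in CPM (14.2 against 35.0).

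The snoRNAs within the hosts were barely covered by these libraries. The table has 29 snoRNA rows inside the 7 hosts, of which 15 had at most 3 counts in every library and 13 had 10 or more counts in at least 1 library. In 7 of those 13 rows both Abl1ko/IL3- libraries were above both Abl1ko/IL3+ libraries, and in 6 the groups overlapped. Only 11 of the 13 passed the expression filter. Gm22489 and Snord50b did not, so the share given next, of genes tested, does not match all 13 rows. Of all genes tested, 19.4% had both Abl1ko/IL3- libraries above both Abl1ko/IL3+ libraries. For Gm22489 in Gas5 that order has no weight, because it rests on 1 count in each of 3 libraries and 34 in Abl1ko/IL3- replicate 2. Snord87 in Snhg6 was separated narrowly, with 21 and 23 counts in the Abl1ko/IL3+ libraries against 62 and 26 in the Abl1ko/IL3- libraries. Snora24 in Snhg8 stood highest, with 31 and 17 counts in the Abl1ko/IL3+ libraries against 221 and 93 in the Abl1ko/IL3- libraries (log2 fold change 2.96, standard error 0.81, adjusted p = 0.73 in edgeR). Within Snhg3 the counts of the snoRNA rows did not follow the host. Snora73a had 46 and 10 counts in Abl1ko/IL3+ cells against 2 and 23 in Abl1ko/IL3- cells, and Snora73b had 30 and 104 against 42 and 27. The snoRNA rows lie inside their hosts on the same strand, so host reads over the same bases cannot be told apart from snoRNA reads. Gm24452, a snoRNA row in Snhg1, had 24 and 7 counts in Abl1ko/IL3+ cells against 64 and 69 in Abl1ko/IL3- cells, although its host overlapped between groups. What a count of 1 stands for was not settled, since for 58.1% to 63.7% of rows with 1 count the deposited FPKM implied a length over 2 times that of the annotated exons.

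Members of other gene lists are described next, and where a gene named from here on had an unadjusted p of 0.05 or more it was chosen after its values were seen. A further list of 14 snoRNA host lncRNAs held 10 genes in the table and 8 that were tested. All 8 had a higher fitted level without IL-3, against 7946 of all 16535 genes tested, and the median log2 fold change was 0.85. In 4 (Snhg10, Snhg14, Snhg17 and Snhg20) both Abl1ko/IL3- libraries were above both Abl1ko/IL3+ libraries, against 19.4% of all genes tested. None passed the test after adjustment. Snhg20 had 17.03 and 13.6 CPM with IL-3 and 64.4 and 26.1 CPM without it (log2 fold change 1.56, standard error 0.54, adjusted p = 0.816 in edgeR), the only one with an unadjusted p under 0.05. Unlike the 7 hosts, Snhg17 and Snhg20 were higher in Abl1ko/IL3+ replicate 1 than in replicate 2. Zfas1, a TOP-type host, had 73.8 and 171 CPM with IL-3 and 152 and 113 CPM without it, an overlap like that of Snhg1. Among 16 tested genes of a list of other well-known lncRNAs the median log2 fold change was 0.15, with 10 higher and 6 lower. Firre, a nuclear RNA of the X chromosome, had 78.8 and 39.7 CPM with IL-3 and 112 and 104 CPM without it, so both Abl1ko/IL3- libraries were above both Abl1ko/IL3+ libraries. Rn7sk, the RNA that holds the elongation factor P-TEFb inactive in the nucleus, had the opposite order, with 97.9 and 95.8 CPM with IL-3 and 77.3 and 33.5 CPM without it. In the list 5 genes were higher and 2 lower in both Abl1ko/IL3- libraries, against 19.4% and 17.9% of all genes tested. In 2900097C17Rik, the mouse NORAD gene, the groups overlapped, at 181 and 136 CPM with IL-3 and 174 and 182 CPM without it.

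Protein-coding snoRNA hosts stood near the background in both directions. Of 24 such genes, mostly ribosomal protein and translation factor genes, 13 had a higher and 11 a lower fitted level (median log2 fold change 0.045), and 5 were higher and 5 lower in both Abl1ko/IL3- libraries, against 19.4% and 17.9% of all genes tested. Eef2, the elongation factor, had 3376 and 4456 CPM with IL-3 and 2232 and 2473 CPM without it, so both Abl1ko/IL3- libraries were below both Abl1ko/IL3+ libraries. Tpt1, another TOP-type host, had 2437 and 2945 CPM with IL-3 and 4166 and 4085 CPM without it, the opposite order. The 11 proteins that build and assemble snoRNPs had a median of -0.015, with 4 higher and 7 lower. Ruvbl1, an ATPase of snoRNP assembly, had 61.4 and 108 CPM with IL-3 and 42.8 and 40.04 CPM without it (log2 fold change -1.04, standard error 0.40, adjusted p = 0.841 in edgeR).

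Factors of NMD were found in both directions. Of 14 tested genes, 8 had a higher and 6 a lower fitted level, with a median log2 fold change of 0.12. The 3 with an unadjusted p under 0.05 in edgeR were Smg5, Smg6 and Smg8, all with a lower level, against 3.36% of all genes. These 3 were also lower in both Abl1ko/IL3- libraries than in both Abl1ko/IL3+ libraries. Over the 14 factors, 3 were lower and 1 higher in that order, against 17.9% and 19.4% of all genes tested. Smg6, the endonuclease of the pathway, had 45.3 and 14.0 CPM with IL-3 and 8.11 and 10.3 CPM without it (log2 fold change -1.69, standard error 0.65, adjusted p = 0.841 in edgeR). For Smg5, its partner in the late steps, the levels were 63.1 and 20.8 CPM with IL-3 and 12.0 and 10.3 CPM without it (log2 fold change -1.92, standard error 0.62, adjusted p = 0.785 in edgeR). Smg8, a regulator of the SMG1 kinase, had 28.9 and 20.2 CPM with IL-3 and 9.88 and 12.1 CPM without it. All 3 were highest in Abl1ko/IL3+ replicate 1. Upf3b, which links the exon junction complex to NMD, was higher in both Abl1ko/IL3- libraries, with 51.8 and 53.7 CPM with IL-3 and 97.2 and 74.0 CPM without it. Whether NMD bears on the level of the hosts was not tested. The core helicase Upf1 overlapped between groups, with 73.3 and 48.1 CPM with IL-3 and 61.3 and 52.6 CPM without it.

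Proteins of paraspeckles and nuclear speckles had a median log2 fold change of 0.29 over 16 tested genes. Of the 16, 13 were higher and 3 lower, with none at an unadjusted p under 0.05 in edgeR. Over all 16535 genes tested, 7946 were higher and 8589 lower. Srsf2, a splicing factor of speckles, had 183 and 302 CPM with IL-3 and 581 and 387 CPM without it. Of the 16 genes, 5 (Pspc1, Srsf1, Srsf2, Srsf5 and Srsf7) were higher in both Abl1ko/IL3- libraries and 1 was lower. These orders were shown by 19.4% and 17.9% of all genes tested. Hnrnpm was the lower one, at 146 and 201 CPM with IL-3 and 105 and 93.8 CPM without it.

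**Figure D4:**
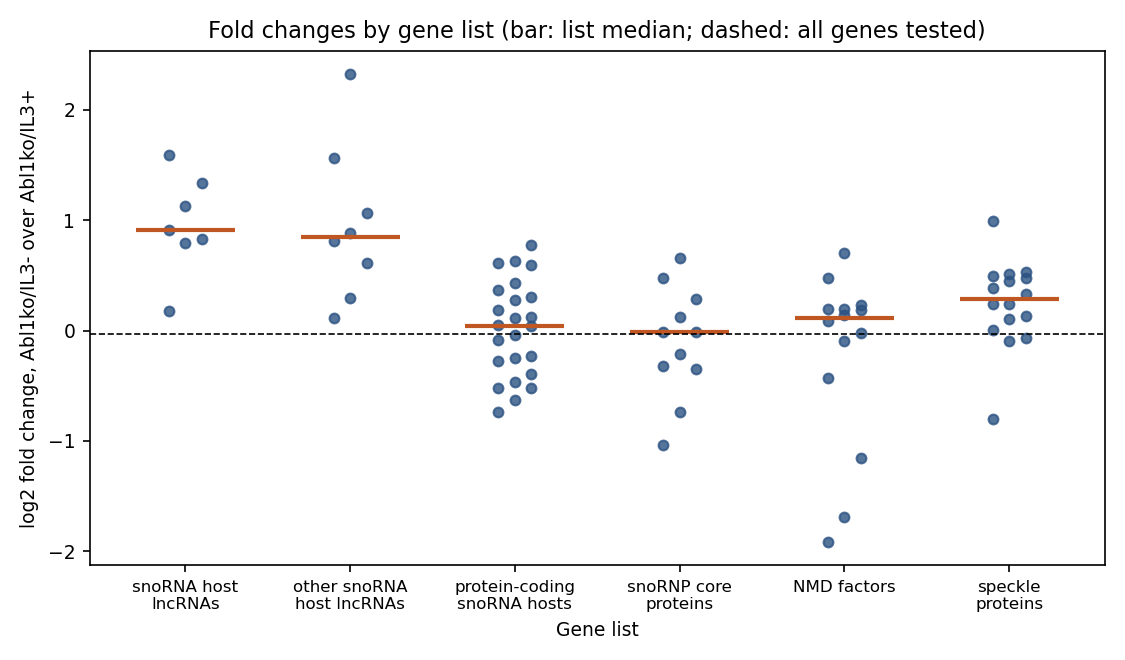
Log2 fold change of each tested gene (points) in 6 gene lists, Abl1ko/IL3- over Abl1ko/IL3+, with the list median as an orange bar and the median of all genes tested as a dashed line. Both lists of noncoding hosts lie above 0 throughout, the protein-coding hosts are spread around 0, and Smg5, Smg6 and Smg8 are the 3 lowest NMD factors.

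Genes whose profile over the 4 libraries was most like that of a member were found by the distance between log2 CPM values centred on each gene's mean, among 12775 other genes with a mean of at least 1 CPM. For Gas5 the nearest were Rpl38, which encodes a ribosomal protein (distance 0.083), Gm45902 and Rpl36a-ps1. Rpl38 had 634 and 1227 CPM with IL-3 and 2219 and 1866 CPM without it. Nearest to Malat1 were Slc5a3 (distance 0.053), Yeats2 and Cfap54, and nearest to Neat1 were mt-Tl1 (distance 0.13), Lpar2 and Gm26530. With 4 libraries and so many genes such likeness describes the profiles only.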

How the data were processed

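RNA was sequenced from 4 libraries, 2 Abl1ko/IL3+ and 2 Abl1ko/IL3-, grouped by their labels; the series text calls the libraries of a group biological duplicates. The deposited counts were raw counts per gene, which the authors made with Rsubread and featureCounts on GRCm38 according to the methods, whereas the submitters' processing notes name STAR, Cuffdiff and mm10. Versions and the handling of strand and read pairs are not given in the sources used here. The deposited FPKM values were made by the authors per gene length, with a tool that is not named for them, and were used only for levels between genes and as an alternative. The count table and the count columns beside FPKM were identical.

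Counts of all genes were tested with edgeR 4.0.16 in R 4.3.3 (filterByExpr, TMM, quasi-likelihood test, Benjamini-Hochberg adjustment over 16535 genes, threshold 0.05). A run on simulated counts used large changes and a lower spread than these libraries, so it does not bear on the 0 genes called here. The spread rests on 2 libraries per group. Alternatives were DESeq2 1.42.0, library size without TMM, no filter, a replicate block, limma 3.58.1 on log2(FPKM + 1) and log2(FPKM + 0.1), and leaving out each library. A crossed pairing and a fit without 6 dominant rows (AY036118, CT010467 and the globin genes Hba-a1, Hba-a2, Hbb-bt and Hbb-bs) were chosen after seeing the data.

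Genes and lists were chosen with earlier results of these data known. Named were every one of the 10 lncRNAs, Abl1, and the 3 genes nearest in profile to Malat1, Neat1 and Gas5. Up to 4 genes a list with an unadjusted p under 0.05 in edgeR and groups that did not overlap were also named. Of the snoRNA rows inside a host with 10 or more counts in a library, only some were given with values. Other genes were named after their values were seen. Intervals of all 10 lncRNAs matched GENCODE M21, and start regions came from RefSeq on GRCm38.p6.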

Additional observations from a re-analysis of the deposited data

How the results depend on the processing

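Under all 12 alternatives 0 of the 10 lncRNAs passed the adjusted threshold, and the lowest adjusted p of any of them was 0.169. Of 120 recomputed fold changes of single lncRNAs, 118 kept their direction and 2 reversed, both of Snhg1, which ranged from -0.27 (without Abl1ko/IL3+ replicate 1) to 0.86 (without Abl1ko/IL3+ replicate 2) and was -0.015 without Abl1ko/IL3- replicate 1. With single libraries left out, the median log2 fold change of the snoRNA hosts, 0.91 with all, ranged from 0.62 without Abl1ko/IL3+ replicate 1 to 1.53 without Abl1ko/IL3+ replicate 2, the library in which these hosts were higher. For the nuclear lncRNAs the median was 1.33 with all libraries and, with single libraries left out, ranged from 0.82 (without Abl1ko/IL3+ replicate 2) to 1.40 (without Abl1ko/IL3- replicate 2). With limma on all libraries it was 0.73 on log2(FPKM + 1) and 0.83 on log2(FPKM + 0.1), where the pseudocount exceeds or is close to the FPKM of Kcnq1ot1 and so shrinks its fold change. DESeq2 called 271 genes after adjustment over all genes and the fit without Abl1ko/IL3- replicate 1 called 15, against 0 in edgeR with every library. The number of the 10 lncRNAs at an unadjusted p under 0.05 was 3 in edgeR with every library (978 of all genes). Under the alternatives that kept every library it was lowest, 2, with the replicate block (548 of all genes). It was highest, 6, with limma on log2(FPKM + 0.1) (1052 of all genes) and with the crossed pairing (1136 of all genes). Fits that leave out a library keep 1 library in a group, which is assumed to vary like the other group. Both Abl1ko/IL3- libraries were above both Abl1ko/IL3+ libraries for 9 of the 10 by library size alone and by FPKM.

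The labels number the replicates but do not say that a number marks a shared clone or day, and same-numbered libraries did not deviate together (correlation of deviations -0.194). With the replicate block 0 of the 10 lncRNAs and 0 of all genes passed the adjusted threshold, 548 of all genes had an unadjusted p under 0.05 against 978 without the block, and the median log2 fold change was 0.95 for the hosts and 1.29 for the nuclear lncRNAs. With the crossed pairing 0 genes passed the adjusted threshold and 1136 had an unadjusted p under 0.05.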
